A study of Mus musculus with 7 samples.

Results

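Accessible chromatin was examined at 10 genes of Wnt signalling and liver zonation: Axin2, Lgr5, Rnf43, Znrf3, Tbx3, Lect2, Sp5, Nkd1, Ctnnb1 and Tcf7l2. A region belonged to a gene when it overlapped the gene body in the GENCODE M21 annotation (mouse build GRCm38) or the 10000 bp on either side. This position rule used no measured value and gave 58 of the 55680 regions, with none shared between the genes. Tcf7l2 had 20 regions, Znrf3 12, Rnf43 8, Axin2 4, Tbx3, Lect2 and Nkd1 3 each, Lgr5 and Ctnnb1 2 each, and Sp5 1. By position, 13 regions lay at a promoter (within 200 bp of an annotated transcript start of the gene), 37 elsewhere in a gene body and 8 in a flank.

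The libraries were ATAC-seq, in which a transposase cuts and tags open DNA, from liver tissue of male C57BL/6N mice, and the comparison asked how accessibility differed with age. The young group held 3 libraries from animals of 3 months and the aged group 4 libraries from animals of 18 months. The series' design text counts 3 aged animals, 1 of them sampled at a pair of lobules, while the study's methods count all 4 as biological replicates. Which libraries share that animal is not given in the sources used here, and p-values treat all 4 as separate samples. Because whole tissue was used, a lower value could mean fewer cells of a type or less open chromatin per cell, and these cannot be told apart.

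In canonical Wnt signalling, secreted Wnt ligands bind Frizzled and LRP receptors, which stops a cytoplasmic destruction complex from degrading beta-catenin (the product of Ctnnb1). Beta-catenin then acts with TCF/LEF factors such as Tcf7l2 at target genes, among them the feedback inhibitors Axin2, Nkd1, Rnf43 and Znrf3. In the liver, endothelial cells around the central vein release Wnt ligands and R-spondin, and hepatocytes near that vein carry a pericentral programme, while those near the portal vein express a different, periportal set.

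TCF/LEF factors bind a short core, searched here as CTTTGAT on both strands (its reverse complement is ATCAAAG). It was present in 19 of the 58 regions (32.76%) against 13.77% of all 55680 regions, and in 6 of the 13 promoter regions (46.15%) against 12.87% of all promoter regions. Longer regions hold more matches, so regions of the same kind within 10% of each member's length were also counted. In these the mean share was 14.96% beside the 58 regions and 17.88% beside the 13 promoter regions. Per kb, the members held 0.351 matches and all regions 0.153. These are descriptions of letters, not of bound sites. Below are the matches inside the promoter regions of the 10 genes, read from GRCm38.p6 on the strand of the gene with 10 bases on each side, and capitals mark the core.

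Axin2 site, chr11:108920417-108920443, plus strand, 81 bases after a start: gccggctgcgCTTTGATaaggtcctgg
Axin2 site, chr11:108921222-108921248, plus strand, 101 bases before a start: ggccggcgcgCTTTGATgtgcggggcg
Lect2 site, chr13:56548554-56548580, minus strand, 65 bases before a start: gcttctccagATCAAAGgctttggccg
Sp5 site, chr2:70474809-70474835, plus strand, 101 bases before a start: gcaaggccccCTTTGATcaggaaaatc
Sp5 site, chr2:70475002-70475028, plus strand, 92 bases after a start: agccgctattCTTTGATgattgggtag
Nkd1 site, chr8:88521261-88521287, plus strand, 80 bases before a start: tccgcctcgcCTTTGATgggccgctgc
Ctnnb1 site, chr9:120934633-120934659, plus strand, 828 bases after a start: gcagctttgcCTTTGATaaagtctgcc
Tcf7l2 site, chr19:55744951-55744977, plus strand, 2119 bases after a start: gaatattgagCTTTGATggcaggcttg

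Sp5 and Axin2 each held a pair of cores, and the promoter regions of Lgr5, Rnf43, Znrf3 and Tbx3 held none. The promoter region of Sp5 was the only one of the 58 to pass the test of age. Sp5 and Lect2 each held 1 of the cores listed above within the 250 bases before the gene start in RefSeq (GRCm38.p6). Windows of 300 bases around RefSeq gene starts held a core in 3.73% of 32851 cases. Both upstream stretches are shown with the core in capitals. RefSeq windows were matched for 7 of the 10 genes, and those of Lgr5, Znrf3 and Tbx3 were not used here. The bases read for Nkd1 (chr8:88527383-88527632) lay further along the gene than the start used above. They therefore left out its core 80 bases before a start.

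Sp5 upstream, chr2:70474673-70474922, plus strand: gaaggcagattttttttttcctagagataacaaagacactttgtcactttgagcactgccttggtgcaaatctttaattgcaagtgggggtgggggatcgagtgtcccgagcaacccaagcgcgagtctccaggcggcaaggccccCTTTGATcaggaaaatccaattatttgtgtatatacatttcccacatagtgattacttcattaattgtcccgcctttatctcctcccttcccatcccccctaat
Lect2 upstream, chr13:56548539-56548788, minus strand: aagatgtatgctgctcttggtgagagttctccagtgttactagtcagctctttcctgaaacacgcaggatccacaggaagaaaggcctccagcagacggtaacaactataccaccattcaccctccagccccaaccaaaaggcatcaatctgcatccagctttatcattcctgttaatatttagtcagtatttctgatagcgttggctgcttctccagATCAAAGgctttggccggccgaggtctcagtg

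Counts in regions summed to between 4474652 and 25461110 per library, and a member region held between 3 and 2026 counts in a library. Strength is given as CPM, the count in a region as a rate of the library's total after TMM scaling. Over all regions the change with age followed strength: the median log2 fold change (aged over young) was -0.42 in the weakest of 10 equal bins of regions and 0.28 in the strongest. Of all calls 42.5% were higher in aged liver, against 58.8% with DESeq2, 64.0% with offsets for GC content, 33.4% with offsets for mean abundance and 15.6% with scaling to total counts. Scaling to total counts also moved the median of all regions from -0.035 to -0.153. Hepatocyte markers matched the labelled tissue: all 7 had a promoter region, with a summed level of 625 to 678 CPM in young and 736 to 862 CPM in aged libraries, and 1 of them (Apoa1) passed the test, higher in aged liver, as did 4.48% of all promoter regions. Stellate cell markers had promoter regions for 3 of 6 genes, with sums of 26.6 to 29.1 CPM in young and 16.1 to 23.5 CPM in aged libraries. Sinusoidal endothelial markers had them for 4 of 6 (67.4 to 75.0 and 53.2 to 89.0 CPM), cholangiocyte markers for 3 of 6 (43.8 to 52.0 and 39.4 to 56.9 CPM), Kupffer cell markers for 1 of 6 (2.22 to 2.65 and 0.588 to 2.8 CPM) and lymphocyte markers for 0 of 6. The cholangiocyte sum was mostly Sox9 (means of 42.7 CPM in young and 40.7 CPM in aged libraries), beside Epcam (3.89 and 2.22 CPM) and Spp1 (2.42 and 2.67 CPM). The stellate sum was mostly Reln (18.7 and 11.7 CPM), beside Col1a1 (5.34 and 4.1 CPM) and Lrat (3.46 and 2.93 CPM). The part of the cell type markers in the results that follow was not tested.

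At the 10 genes, 1 of the 58 regions fell with age and 0 rose. The region that fell covers the promoter and most of Sp5, a gene for a zinc finger factor that is a direct Wnt target. Of all regions, 3.3% were lower and 2.44% higher in aged liver (edgeR's quasi-likelihood test, Benjamini-Hochberg adjusted p under 0.05). DESeq2 called the same region and no other at these genes, 0 higher and 1 lower, against 4.96% of all regions higher and 3.47% lower. At an unadjusted p under 0.05, 0 member regions were higher (11.9% of all regions) and 9 lower (12.7% of all regions). Every aged library lay below every young one in 7 member regions (11.6% of all regions) and above every young one in 0 (10.2% of all regions).

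The median log2 fold change of the 58 regions was -0.18, beside -0.035 over all regions, and 16 of the 58 (27.59%) were above 0, beside 46.57% of all regions. The median was -0.057 with offsets for mean abundance, -0.088 with offsets for GC content, -0.297 with total counts, -0.118 without aged library 4 and -0.108 without young library 1. The members differed by strength, as did all regions. Of the 32 weaker than the median region of the table, 2 were above 0 (6.25%, all such regions 27.8%), with a median of -0.29 (all such regions -0.24). Of the 26 stronger ones 14 were above 0 (53.85%, all such regions 65.33%), with a median of 0.068 (all such regions 0.12). When each member was set beside the median of its own strength bin, 36 lay below it and 22 above. The number above 0 was 23 with offsets for mean abundance, 13 with scaling to total counts and 24 without aged library 4. That library was the lowest of the aged group in 34 of the 58 regions (58.6%), beside 29.8% of all regions.

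**Figure D1:**
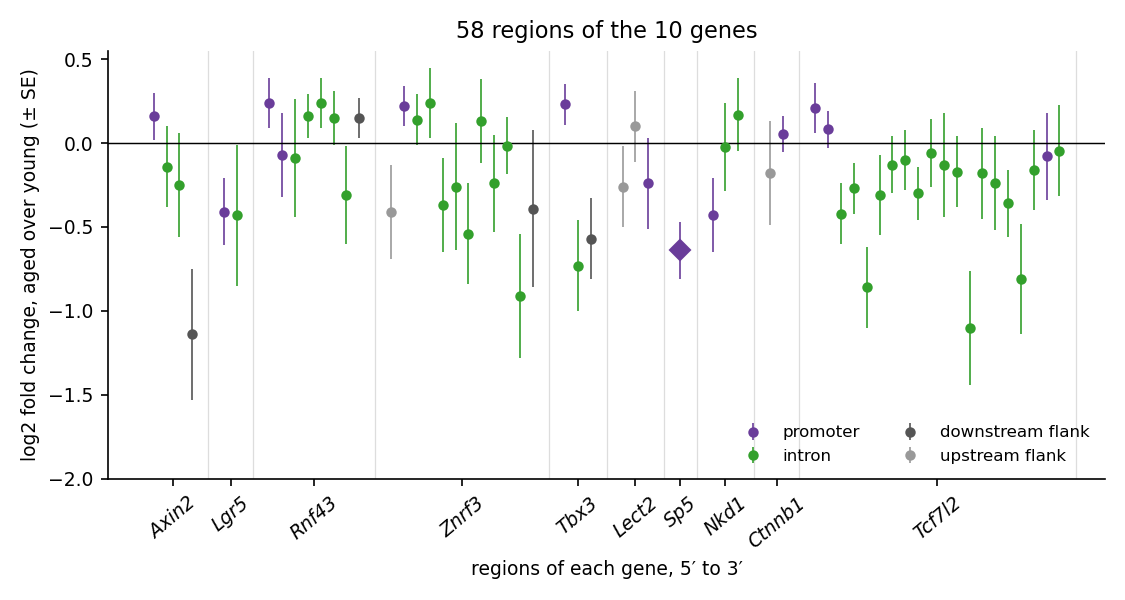
Log2 fold change (aged over young, 3 and 4 libraries) with its standard error for the 58 regions, ordered 5′ to 3′ within each gene and coloured by position. The large diamond is the Sp5 region, the only one with an adjusted p under 0.05, and 16 regions lie above 0.

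Sp5 was the one target gene to pass the test. Its region (chr2:70474234-70477198, 2965 bp, 62.6% GC) read 28.6, 22.4 and 24.7 CPM in the young libraries. The aged libraries read 17.0, 18.8, 17.3 and 12.1 CPM. All aged values were below all young ones, with means of 25.2 ± 3.12 CPM (SD, n = 3) and 16.3 ± 2.91 CPM (SD, n = 4). The log2 fold change was -0.64 with a standard error of 0.17 (edgeR adjusted p = 0.043), where the median of regions of like strength was 0.076. The call was lost when most single libraries were left out, and calls over all regions changed as well. From 3198 in the main fit these went to 402 without aged library 1, 651 without aged 3, 188 without young 1 and 446 without young 2. They were 4230 without aged library 4, 2898 without aged 2 and 2651 without young 3. Without aged library 1, 3 or 4 the adjusted p of Sp5 was 0.0954, 0.0948 and 0.0584. Without young library 1, 2 or 3 it was 0.17, 0.0803 and 0.0736, and only without aged library 2 (0.0424) did its call remain. The log2 fold change stayed between -0.75 and -0.51 in the 21 alternatives, with adjusted p from 0.0249 to 0.17. Since this is the only region of the gene, the gene total changed by the same amount (log2 fold change -0.64 ± 0.16 SE, adjusted p = 0.0377 over 28925 genes). It was the only one of the 10 gene totals called: 0 were higher, where 5.73% of all genes were, and 1 lower, where 3.77% were. At an unadjusted p under 0.05, 0 of the 10 totals were higher (20.0% of all genes) and 1 lower (10.9% of all genes).

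Tbx3, a T-box factor that beta-catenin induces in liver, had 3 regions, of which the promoter was above 0 and the others below. With offsets for mean abundance the promoter value was also below 0 (-0.063). The promoter region, which also holds the start of the divergent gene Tbx3os1, read 76.5, 76.6 and 81.7 CPM in young and 98.2, 92.0, 103 and 75.1 CPM in aged libraries. Aged libraries 1 to 3 were above the young ones and aged library 4 was below them. The log2 fold change was 0.23 ± 0.12 (SE), adjusted p = 0.25. The intron region 5.6 kb from the start read 8.89, 5.97 and 6.25 CPM in young and 4.04, 4.12, 6.07 and 3.18 CPM in aged libraries (log2 fold change -0.73 ± 0.27, adjusted p = 0.115). In the region 15.4 kb from the start, just past the gene, no aged library reached the young range (-0.57 ± 0.24, adjusted p = 0.163). None of the 3 passed the test.

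Lect2, which encodes a secreted hepatocyte protein and is a beta-catenin target in liver, gave 24.9, 16.4 and 23.0 CPM in young and 19.7, 21.8, 23.4 and 8.27 CPM in aged libraries at its promoter region. The groups overlapped and aged library 4 stood lowest (log2 fold change -0.24 ± 0.27, adjusted p = 0.627). Without aged library 4 the value was 0.024, on the other side of 0. Upstream regions 2.0 and 8.0 kb before the start had log2 fold changes of 0.10 ± 0.21 and -0.26 ± 0.24 (adjusted p = 0.795 and 0.54).

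**Figure D2:**
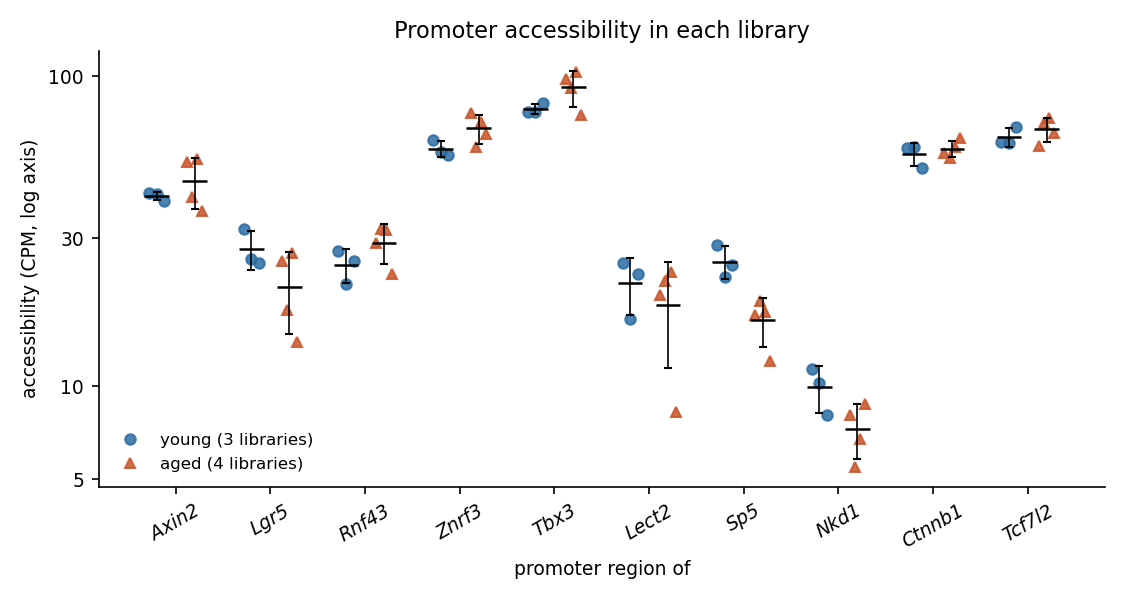
Accessibility (CPM, log axis) of the promoter region of each gene in each library, young as circles and aged as triangles, with the group mean (bar) and SD. Sp5 is the only gene whose aged libraries (12.1 to 18.8 CPM) all lie below its young ones (22.4 to 28.6 CPM), and the other 9 overlap.

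The receptor Lgr5 binds R-spondin and marks pericentral hepatocytes in liver. Its promoter region read 32.2, 25.8 and 25.0 CPM in young and 25.4, 17.6, 26.9 and 13.9 CPM in aged libraries. Aged libraries 2 and 4 lay below the young range and the other two inside it (log2 fold change -0.41 ± 0.20, adjusted p = 0.232). The second Lgr5 region, in an intron 6.2 kb from the start, had nearly the same log2 fold change -0.43 ± 0.42 (adjusted p = 0.561), from 0.764 to 4.11 CPM. In the 21 alternatives the promoter value stayed below 0, between -0.53 and -0.24, with adjusted p of 0.132 or more.

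Rnf43 and Znrf3 encode membrane ubiquitin ligases that remove Frizzled receptors and so limit Wnt signalling, and R-spondin with LGR receptors blocks them. The Rnf43 promoter region read 27.2, 21.3 and 25.3 CPM in young and 29.0, 32.2, 32.0 and 23.0 CPM in aged libraries. Aged libraries 1 to 3 were above the young range and aged library 4 was within it (log2 fold change 0.24 ± 0.15, adjusted p = 0.353). Of the 8 Rnf43 regions 5 were above 0, and the one with the smallest p, in an intron 39.1 kb from the start, is also at the promoter of 1110028F11Rik (0.24 ± 0.15, adjusted p = 0.348). The flanking region 74.1 kb from the start sits at the promoter of Supt4a and stood at 0.15 ± 0.12.

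The Znrf3 promoter region read 62.5, 57.0 and 55.9 CPM in young and 76.1, 59.2, 71.2 and 65.2 CPM in aged libraries, with aged library 2 inside the young range (log2 fold change 0.22 ± 0.12, adjusted p = 0.26). Its 9 intron regions ran from -0.91 to 0.24 with a median of -0.24, where the median of regions of like strength was -0.25. The smallest p was in the intron 153.9 kb from the start, with 1.76, 2.19 and 2.63 CPM in young and 0.966, 1.77, 1.17 and 0.891 CPM in aged libraries (log2 fold change -0.91 ± 0.37, adjusted p = 0.146). Aged library 2 just entered the young range there.

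Axin2 and Nkd1 act inside the cell, Axin2 as a scaffold of the destruction complex and Nkd1 as an inhibitor that binds Dishevelled. The Axin2 promoter region read 42.1, 41.5 and 39.6 CPM in young libraries. The aged libraries spread wider, at 52.7, 40.8, 53.9 and 36.6 CPM, around the young range (log2 fold change 0.16 ± 0.14, adjusted p = 0.515). The other 3 Axin2 regions were below 0. In the weakest of these, 35.7 kb from the start in the downstream flank, the young libraries read 3.24, 2.12 and 2.14 CPM and the aged ones 1.14, 1.96, 0.7 and 0.764 CPM. All aged values were below the young ones, but the region held down to 3 counts in a library and did not pass the test (log2 fold change -1.14 ± 0.39, adjusted p = 0.0957, and 0.0562 to 0.382 over its 19 alternatives).

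The Nkd1 promoter region was weak, with 11.4, 10.2 and 8.06 CPM in young and 8.08, 5.49, 6.77 and 8.78 CPM in aged libraries. Aged libraries 2 and 3 lay below the young range and the other two inside it (log2 fold change -0.43 ± 0.22, adjusted p = 0.238). It was below 0 in all 21 alternatives, from -0.56 to -0.30. Its 2 intron regions had log2 fold changes of -0.023 ± 0.26 and 0.17 ± 0.22.

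The promoter region of Ctnnb1, the beta-catenin gene, read 58.5, 59.1 and 50.6 CPM in young and 56.8, 54.5, 59.3 and 63.0 CPM in aged libraries. Means were 56.1 ± 4.71 CPM (SD, n = 3) and 58.4 ± 3.64 CPM (SD, n = 4), a difference smaller than the spread between libraries (log2 fold change 0.054 ± 0.11, adjusted p = 0.8). The upstream region 1.9 kb before the start gave -0.18 ± 0.31 (adjusted p = 0.759).

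Tcf7l2, the TCF factor with the most regions here, encodes the DNA-binding partner of beta-catenin in hepatocytes. The stronger of its start regions read 61.5, 60.8 and 68.6 CPM in young and 59.5, 70.8, 73.5 and 65.7 CPM in aged libraries, with full overlap (log2 fold change 0.081 ± 0.11, adjusted p = 0.699). The neighbouring start region gave 0.21 ± 0.15, and an internal start 153.9 kb into the gene gave -0.079 ± 0.26. Along the gene, however, all 17 intron regions had a log2 fold change below 0, from -1.1 to -0.045 (median -0.24, median of regions of like strength -0.14). Of all regions outside promoters, 41.01% were above 0. None of the 17 passed the test. An unadjusted p under 0.05 was found in 4 of the 17, beside 14.1% lower among all regions outside promoters, and in 4 every aged library was below every young one, beside 12.7%. These regions come from the same 7 libraries and are not independent. The number below 0 was 12 of 17 with offsets for mean abundance, 15 with offsets for GC content, 17 with total counts and 14 without aged library 4.

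The intron region 50.2 kb into Tcf7l2 came nearest to the threshold. Young libraries read 8.61, 5.78 and 7.73 CPM and aged libraries 4.04, 3.92, 4.67 and 3.56 CPM. The aged values were close together and all below the young ones (log2 fold change -0.86 ± 0.24, adjusted p = 0.0524). Its adjusted p ranged from 0.0331 to 0.209 over 20 alternatives. The region at 95.4 kb was also without overlap, with 3.70, 3.06 and 2.47 CPM in young and 1.84, 1.77, 1.17 and 0.891 CPM in aged libraries (-1.1 ± 0.34, adjusted p = 0.0691). At 134.8 kb aged library 4 (4.84 CPM) lay in the young range of 4.20 to 7.23 CPM and the other 3 between 1.96 and 2.80 CPM. Its log2 fold change was -0.81 (adjusted p = 0.145), and -1.15 without aged library 4 (adjusted p = 0.0375). The gene total was not called (log2 fold change -0.10 ± 0.084, adjusted p = 0.424).

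**Figure D3:**
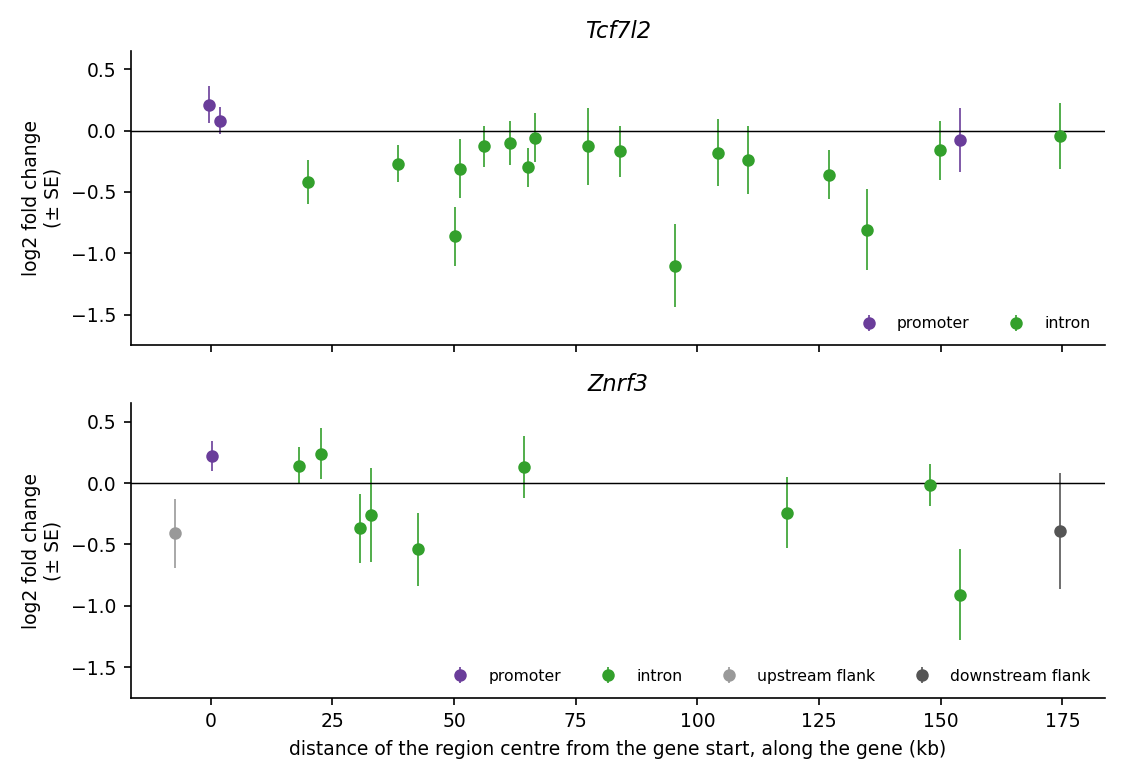
Log2 fold change (aged over young) with its standard error against the distance of the region centre from the gene start (kb), for the 20 regions of Tcf7l2 and the 12 of Znrf3. All 17 Tcf7l2 intron regions lie below 0, while the 9 Znrf3 intron regions lie on both sides.

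Per kb of region, and with the region of the highest CPM standing for each gene, the promoters fell into an upper and a lower group over all 7 libraries. Znrf3 stood at 33.7 ± 3.96 CPM per kb (SD, n = 7) and Tbx3 at 30.6 ± 4.10 CPM per kb, and the ranges of this pair overlapped. Tcf7l2 (23.4), Axin2 (22.2), Rnf43 (20.6) and Ctnnb1 (20.4 CPM per kb) followed, each overlapping the next. The order depends on that choice, since the shorter start region of Tcf7l2 (1065 bp) stood at 39.3 ± 8.93 CPM per kb in young and 45.8 ± 5.46 CPM per kb in aged libraries, above the Znrf3 means. Below a gap came Lgr5 at 10.3, Lect2 at 7.68, Nkd1 at 7.13 and Sp5 at 6.79 CPM per kb, again each overlapping the next. In the young libraries alone Sp5 (8.51), Lect2 (8.39) and Nkd1 (8.39 CPM per kb) were nearly level, and Ctnnb1 (19.9) stood above Rnf43 (18.7 CPM per kb). Only Tbx3 with Tcf7l2 and Ctnnb1 with Lgr5 were neighbours without overlap. All 4 genes of the lower group had a log2 fold change below 0 and all 6 of the upper group one above 0. Against the median of regions of like strength, 9 of the 10 promoters were lower and only Rnf43 higher. With offsets for mean abundance 1 of the 10 promoters was above 0, and with total counts 4 were.

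**Figure D4:**
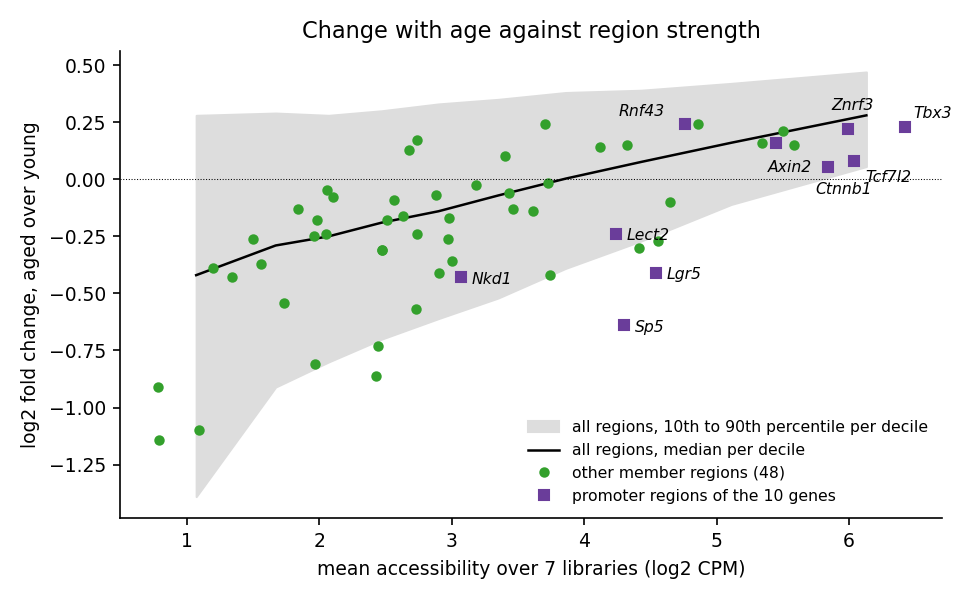
Log2 fold change (aged over young) against mean accessibility over the 7 libraries (log2 CPM) for the promoter regions of the 10 genes (squares) and the other 48 regions (circles). The line and band give the median and the 10th to 90th percentile of all 55680 regions in 10 bins of strength, and Sp5, Lgr5 and Lect2 lie below 0 where the median is above 0.

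The rest of the pathway was read at promoters, of which 4.48% over the genome were higher and 2.06% lower in aged liver. Of 72 further pathway genes 44 had a promoter region, and 3 of these rose and 2 fell. Among 23 Wnt and R-spondin ligands, 8 had one, 0 rose and 1 fell (median log2 fold change -0.39, -0.25 for regions of like strength). The gene that fell was Wnt9b, a ligand of the central vein endothelium. Its promoter region read 5.55, 5.67 and 4.11 CPM in young and 2.2, 3.53, 2.57 and 1.91 CPM in aged libraries. The aged libraries all lay below the young ones (log2 fold change -1.07 ± 0.29, adjusted p = 0.0439).

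Wnt2, the other main ligand of that endothelium, gave 2.31, 2.76 and 1.97 CPM in young and 1.93, 1.57, 1.17 and 1.91 CPM in aged libraries. The groups did not overlap, but the test was not passed (log2 fold change -0.50 ± 0.32, adjusted p = 0.358). Rspo3, the R-spondin that sustains the pericentral programme, had -0.17 ± 0.27 (adjusted p = 0.735), and Wnt7a had -1.11 ± 0.31 (adjusted p = 0.0516). The endothelial markers Cdh5 and Kdr had log2 fold changes of -0.44 and -0.35 at their promoters (adjusted p = 0.358 and 0.384), and Stab2 had 0.051. Their part in the Wnt9b value was not tested.

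Of 17 receptors 13 had a promoter region, with 0 higher and 1 lower and a median of 0.10, where that of regions of like strength was 0.28. Fzd3, a Frizzled receptor, fell from 12.5, 11.6 and 11.8 CPM in young to 7.03, 5.10, 4.20 and 7.13 CPM in aged libraries, with a wide gap between the groups (log2 fold change -0.99 ± 0.21, adjusted p = 0.0212). Fzd5 (0.32 ± 0.11, adjusted p = 0.0871) and Fzd9 (-0.55 ± 0.20, adjusted p = 0.113) did not pass. Of 13 secreted inhibitors 6 had a promoter region, with 0 called in either direction and all 6 below 0 (median -0.25, median of regions of like strength -0.19). Sfrp4, which binds Wnt ligands, stood at -1.15 ± 0.32 (adjusted p = 0.0504), Frzb at -0.55 and Notum, the enzyme that removes the lipid of Wnt ligands, at -0.24.

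All 12 genes of the destruction complex and Dishevelled group had a promoter region, 2 rose and 0 fell (median 0.18, median of regions of like strength 0.28). Gsk3a, a kinase that marks beta-catenin for degradation, rose from 169, 148 and 137 CPM to 199, 179, 224 and 228 CPM (log2 fold change 0.46 ± 0.12, adjusted p = 0.0447). Btrc, the ubiquitin ligase subunit that then recognises it, rose from 65.9, 65.2 and 58.7 CPM to 89.4, 76.1, 81.9 and 86.3 CPM (0.40 ± 0.11, adjusted p = 0.0449). At both genes all aged libraries lay above the young ones. Gsk3b reached 0.51 ± 0.18 (adjusted p = 0.0986). Of 7 TCF factors and coactivators 5 had a promoter region, and 1 of these rose: Bcl9l, a beta-catenin coactivator, with 135, 122 and 139 CPM in young and 178, 161, 191 and 197 CPM in aged libraries (0.46 ± 0.11, adjusted p = 0.0323). Bcl9, the relative of Bcl9l, had 0.48 ± 0.15 (adjusted p = 0.0642) and Pygo2 0.28 ± 0.14.

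Over gene bodies and flanks, 0 of 35 ligand regions were higher and 1 lower, and of 82 receptor regions 1 was higher and 1 lower. Inhibitors had 0 and 0 of 19, the destruction complex group 4 and 2 of 54, and the TCF factors and coactivators 3 and 1 of 38. Of all regions 2.44% were higher and 3.3% lower.

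These 5 promoter calls also depended on the setting. With offsets for mean abundance the log2 fold changes of Gsk3a, Btrc and Bcl9l shrank to 0.043, 0.12 and 0.059. Those of Wnt9b and Fzd3 were -0.788 and -0.865, beside -1.065 and -0.989 in the main fit. None of the 5 was called, with adjusted p of 0.845, 0.547, 0.824, 0.178 for Wnt9b and 0.0647 for Fzd3. Over all 20 alternatives the adjusted p ran from 0.00854 to 0.845 for Gsk3a, 0.013 to 0.547 for Btrc, 0.00236 to 0.824 for Bcl9l, 0.024 to 0.178 for Wnt9b and 0.00473 to 0.0877 for Fzd3. Leaving out aged library 1, aged library 3, young library 1 or young library 2 removed all 5 calls. In these settings calls over all regions fell from 3198 to 402, 651, 188 and 446. Without single libraries the log2 fold changes ran from -1.093 to -0.88 for Fzd3 and -1.246 to -0.952 for Wnt9b. For Gsk3a they ran from 0.403 to 0.549, for Btrc from 0.363 to 0.44 and for Bcl9l from 0.408 to 0.514. Without aged library 4 the calls of Wnt9b (adjusted p = 0.0571), Gsk3a (0.0578) and Btrc (0.0546) were lost, and without young library 3 those of Gsk3a (0.0914) and Btrc (0.0774).

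The promoters of the zonated genes gave no call. Of 13 pericentral genes 12 had a promoter region and of 13 periportal genes all 13, with 0 higher and 0 lower in both. Over gene bodies and flanks, 4 of 83 pericentral and 4 of 124 periportal regions were lower and 0 higher, beside 3.3% and 2.44% of all regions. Glul, the glutamine synthetase of the innermost pericentral hepatocytes and a Wnt target, read 54.1, 69.0 and 57.4 CPM in young and 49.7, 57.1, 52.1 and 49.5 CPM in aged libraries (log2 fold change -0.22 ± 0.12, adjusted p = 0.274). Cyp2e1, a pericentral cytochrome, had 0.29 ± 0.17 (adjusted p = 0.322) and the periportal cytochrome Cyp2f2 -0.003 ± 0.19 (adjusted p = 0.995). The median was 0.16 for the pericentral and 0.27 for the periportal promoters, beside 0.16 for regions of like strength in both lists. When single libraries were left out, the pericentral median ran from 0.041 (without aged library 3) to 0.255 (without aged library 4). The periportal one ran from 0.24 (without aged library 4) to 0.352 (without aged library 1). With offsets for mean abundance the medians of the receptors (-0.111), the destruction complex group (-0.002) and the pericentral genes (-0.031) were below 0, and with total counts that of the receptors was (-0.027). At an adjusted p of 0.0683 to 0.146 stood the pericentral Rgn (0.42), Cyp27a1 (0.30) and Slc1a2 (-0.74), and the periportal Cps1 (0.59), Gls2 (0.38) and Cdh1 (-1.28).

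**Figure D5:**
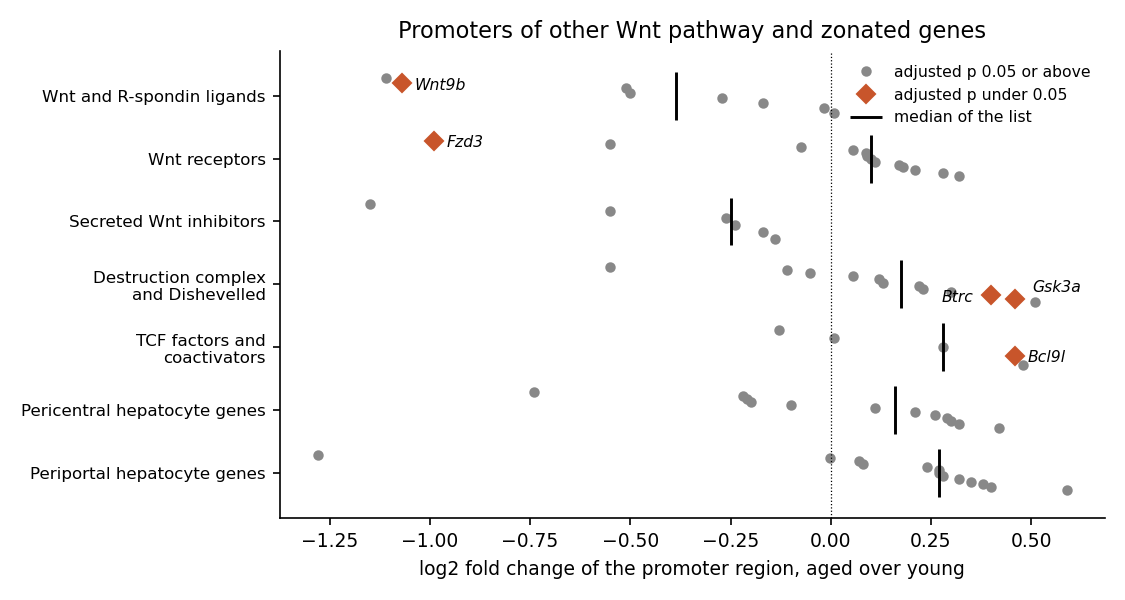
Log2 fold change (aged over young) of the promoter region of each further Wnt pathway or zonated gene, by list, with the list median as a black bar. Diamonds mark the 5 with an adjusted p under 0.05: Wnt9b and Fzd3 lower, Gsk3a, Btrc and Bcl9l higher in aged liver.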

How the data were processed

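The authors deposited raw read counts for 55680 consensus regions in 7 liver libraries. Per the labels and the study's methods, reads were trimmed with cutadapt 1.13, aligned to GRCm38 with Bowtie2 2.4.1, filtered for mapping quality and proper pairs, and stripped of PCR duplicates and mitochondrial reads. Peaks were called per library with MACS2 2.2.7, and featureCounts gave the counts over peaks found in 2 or more libraries. Without molecular identifiers, counts are not independent molecules.

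All regions were fitted together with edgeR 4.0.16 (R 4.3.3): TMM normalization, a quasi-likelihood test of age with no covariate, Benjamini-Hochberg adjustment, threshold 0.05. The standard error is the absolute log2 fold change divided by the square root of F. CPM values used TMM factors. Gene totals were counts summed over a gene's regions for 28925 GENCODE M21 genes, fitted alike with the library sizes of the region table. The fit over all regions was tested on simulated data. Where several regions met a gene's promoter (transcript start ± 200 bp), the strongest was used. Strength was mean log2 CPM (prior count 2), cut into 10 equal bins. Matches to the core and region GC came from the GRCm38.p6 sequence.

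Named are all 10 genes with their promoter region, every member region under the threshold (otherwise the region with the smallest p), up to 3 genes of each further list by smallest p, and Wnt2, Wnt9b, Rspo3, Glul, Cyp2e1 and Cyp2f2. Other Tcf7l2, Tbx3, Lgr5, Rnf43, Nkd1 and Lect2 regions were named after their values were seen, as were Stab2 and the values of aged library 4. The members and lists were chosen with earlier results of these data known.

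Alternatives were DESeq2 1.42.0, total counts, loess offsets (span 0.3) on mean abundance or GC, filterByExpr, at least 10 counts in every library, leaving out each library, summing each of 6 aged pairs, a replicate block, gene bodies alone, a threshold of 0.01 and promoters of ± 1000 bp. Those for the pathway lists were chosen after seeing the data. Same-age libraries differed by more than sampling noise. Figures used matplotlib 3.10.9.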

Additional observations from a re-analysis of the deposited data

How the results depend on the processing

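The count of regions lower in aged liver (1) was 0 with offsets for mean abundance, at a threshold of 0.01 and with aged libraries 1 and 3, 2 and 3, or 3 and 4 summed, and 2 with total counts and with aged 2 and 4 summed. It ran from 0 to 1 when single libraries were left out. The gene totals called lower (1) fell to 0 under the same offsets and sums and ran from 0 to 1 without single libraries. Counts of higher regions and gene totals were 0 under every alternative, and the median over the 58 regions stayed between -0.297 and -0.057. Sp5 kept its direction but missed the threshold with offsets for mean abundance (log2 fold change -0.69, adjusted p = 0.0607) and with aged 1 and 3 (-0.661), 2 and 3 (-0.676) or 3 and 4 (-0.619) summed, and ran from -0.722 to -0.506 without single libraries.

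A fit with the replicate number as a replicate block gave 0 lower gene totals and 1 lower region, which was Tcf7l2 at 134.8 kb (log2 fold change -1.18, adjusted p = 0.0317) in place of Sp5 (-0.514, adjusted p = 0.0677). Same-numbered libraries share only a number: the correlations of their deviations were -0.119, 0.056 and 0.03. Number 4 occurs only in the aged group, so the block takes aged library 4 out of the age comparison. Its log2 fold changes were close to those without that library (-1.15 for Tcf7l2 at 134.8 kb and -0.506 for Sp5). With that block 0 pathway promoters were higher.

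Pathway promoters called higher (3) and lower (2) were 5 and 4 with DESeq2, 6 and 4 with GC offsets, 0 and 0 with abundance offsets and 0 and 4 with total counts. Higher ones were 0 with at least 10 counts in every library and with aged 1 and 3 or 3 and 4 summed, and 1 with aged 1 and 4 or 2 and 3 summed. Lower ones were 1 with aged 1 and 3 or 2 and 3 summed and 4 with aged 2 and 4 summed. Without single libraries they ran from 0 to 3 and from 0 to 2.

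Values that crossed 0 with abundance offsets were the promoters of Axin2 (-0.034), Znrf3 (-0.036), Tbx3 (-0.063), Ctnnb1 (-0.184) and Tcf7l2 (-0.179) and the Ctnnb1 upstream region (0.096). With total counts Ctnnb1 (-0.064) and Tcf7l2 (-0.038) crossed, and Lect2 did with the block (0.021) and, among single libraries left out (-0.415 to 0.024), without aged 4. For Lect2 these are nearly the same comparison, since the block also takes aged library 4 out of it. The cause of the other crossings was not tested. Of 447 values for 22 single regions, Sp5 included, 369 kept direction and side of the threshold and 66 missed it with the same direction. Weak regions limit precision, since 7 of the 58 held under 10 counts in some library.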
